A study of Homo sapiens with 3 samples.

Results

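The 10 genes described here encode alpha-, beta- and gamma-tubulins of interest for taxane drugs: TUBA1A, TUBA1B, TUBA1C and TUBA4A (alpha), TUBB, TUBB2A, TUBB2B, TUBB3 and TUBB6 (beta) and TUBG1 (gamma). They were chosen by symbol, and each has a single RefSeq row among the 18674 genes of the table that could be used. The cells were A2780, an ovarian cancer line whose source was an undifferentiated tumour, and 3 libraries were made from their messenger RNA. Control cells stably carried the empty pBABE vector (1 library, called the vector library), and the other 2 libraries came from lines of the same cells that stably express miR-181a (called pool 1 for p181a#1 and pool 2 for p181a#2). The labels describe the miR-181a cells as polyclonal pools in the protocol and as clones elsewhere, and name no separate cultures, so the p-values rest only on how far these 2 libraries differ, a spread that can be technical. No taxane or other drug is named in the labels.

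Microtubules are built from alpha- and beta-tubulin dimers and are nucleated by rings that contain gamma-tubulin. Taxanes such as paclitaxel bind beta-tubulin inside the polymer and stabilise it, which blocks the mitotic spindle. Vertebrates have several alpha and beta isotypes whose proteins are nearly alike except in the acidic tail at the carboxyl end. Class III beta-tubulin (TUBB3), an isotype typical of neurons, is often discussed as a marker of poor taxane response in carcinomas.

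The ends of the coding sequences of the beta-tubulin members are shown because they encode the tails, in which most of these isotypes differ. Much of the rest of the coding sequence is shared between genes. Each line gives the last 60 coding bases in lower case, 5′ to 3′ on the gene's own strand, followed by the stop codon in capitals, from GENCODE transcripts on GRCh37. All of these stretches lie within a single exon.
TUBB: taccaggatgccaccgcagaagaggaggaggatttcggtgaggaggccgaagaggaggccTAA
TUBB2A: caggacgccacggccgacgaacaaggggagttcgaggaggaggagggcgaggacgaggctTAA
TUBB2B: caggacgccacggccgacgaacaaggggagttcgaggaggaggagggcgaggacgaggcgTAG
TUBB3: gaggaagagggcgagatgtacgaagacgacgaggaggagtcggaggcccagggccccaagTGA
TUBB6: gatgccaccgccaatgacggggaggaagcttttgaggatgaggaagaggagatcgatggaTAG
Identity is given as the percent of aligned positions, gaps included. For TUBB2A and TUBB2B it was 98.3% over the last 60 bases and 98.2% over the coding sequence. Before the stop codon their lines differ only in the last base, and both final codons encode alanine. The tails shown for TUBB2A and TUBB2B are therefore the same in protein. For TUBB and TUBB3 it was 47.0% over the alignment of the last 60 bases and 82.2% over that of the coding bases before them. The same figures for TUBB3 and TUBB6 were 44.4% and 88.8%. The line of TUBB lies on GRCh37 at chr6:30692112-30692174 (plus strand). Those of TUBB2A and TUBB2B lie at chr6:3154097-3154159 and chr6:3224985-3225047 (both minus), that of TUBB3 at chr16:90002150-90002212 (plus) and that of TUBB6 at chr18:12326067-12326129 (plus).

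How far reads of 100 bases can separate these genes was measured as the share of 100-base windows of each transcript that occur, on either strand, in a transcript of another annotated gene. TUBB6 had none, so its coverage is its own by this measure. For TUBB the share was 21.7%, all of it with a pseudogene (TUBBP1) or an overlapping gene (ENSG00000272540) and none with another tubulin gene of the lists used here. TUBB2A shared 53.7% of its windows with TUBB2B, and TUBB2B shared 44.7% with TUBB2A, so the levels of these genes are uncertain. TUBA1B shared 18.6% of its windows with TUBA1C, 18.5% with TUBA1A and 65.4% with TUBA1B-AS1, an annotated antisense gene at the same locus. TUBB3 shared 92.5% with ENSG00000198211, a gene annotated over the same locus, and 5.35% with other tubulin genes. For TUBA4A the main partner was STK16, a kinase gene next to it, with 27.1%. How the authors placed reads that fit several genes and whether strand was used is not stated in the labels, so levels of genes with large shares cannot be told apart from those of their partners.

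**Figure D1:**
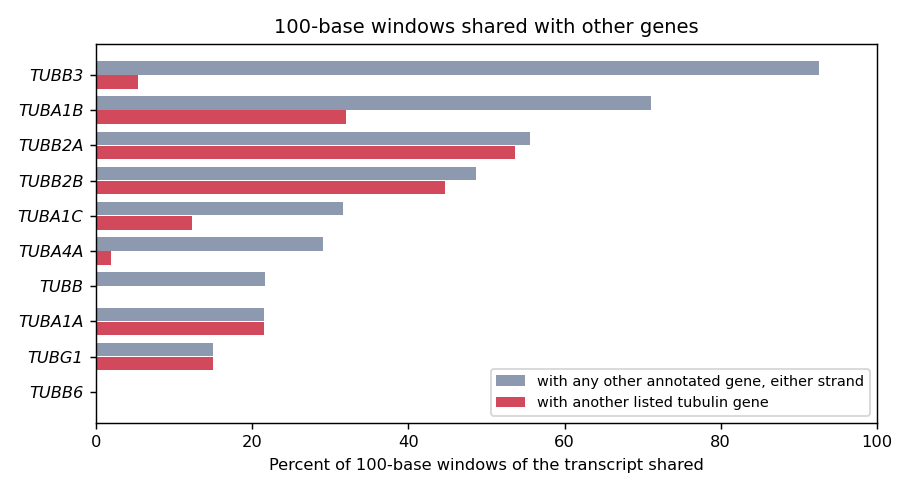
Percent of 100-base windows of each transcript that also occur in another annotated gene (grey) or in another tubulin gene of the lists used here (red). TUBB3, TUBA1B, TUBA1C, TUBA4A and TUBB share more with overlapping genes or pseudogenes than with other tubulin genes, TUBB2A and TUBB2B share mainly with each other, and TUBB6 shares none.

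Values are coverage, the median read density over 50 bp windows along a transcript, so levels of different genes can be compared within a library. No read counts come with them, so the depth is unknown. Coverage summed over 28848 rows to 907092 in pool 1, 719263 in pool 2 and 798228 with the vector. The vector library stands apart: 12.8% of its rows were at 0, against 32.3% and 32.2% in the pools, and of 8822 rows at 0 in both pools 62.9% had a value above 0 there. Epithelial markers summed to 138 in the vector library and to 17.6 and 16.6 in the pools, and 4 of 7 (EPCAM, KRT19, CDH1 and CLDN7) were at 0 in both pools. Ovarian carcinoma markers summed to 126, 0.679 and 0.577, and PAX8, WT1, MUC16, SOX17 and ESR1 were at 0 in both pools. Most of that vector sum was ESR1, at 104, while WT1 and SOX17, and the epithelial CDH1, were at 0 with the vector too. Markers of other cell types were also present with the vector. Endothelial markers summed to 220 there, of which KDR made 167, and to 0 and 0.037 in the pools. Immune markers summed to 67.8, 0.444 and 0.0635, with CD74 at 39.2 with the vector. Of 9 neuronal markers, 8 were at 0 in both pools, as were 3 of 4 endothelial and 3 of 5 immune markers. Fibroblast markers summed to 526, 1728 and 1398, although COL1A1 was at 7.41, 0 and 0.706. The part of these differences in the results below was not tested.

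Among the alpha-tubulins, TUBA1B (chromosome 12, 49521565 to 49525180 on GRCh37), the broadly expressed isotype, was the most abundant of the 10 genes. Coverage of TUBA1B reached 849 with the vector, 1474 in pool 1 and 1223 in pool 2. TUBA1C (chromosome 12, 49582519 to 49668383), a further broadly expressed isotype, stood at 284, 515 and 445. TUBA1A (chromosome 12, 49578469 to 49582863), the isotype prominent in developing neurons, stood at 120, 276 and 224. In all 3 of these genes both pools lay above the vector library, and pool 1 was the higher pool. TUBA4A (chromosome 2, 220114432 to 220142624) went the other way, with 11.5 in the vector library, a listed value of 0 in pool 1 and 0.103 in pool 2.

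TUBB (chromosome 6, 30685212 to 30693315), class I beta-tubulin and the main isotype of most dividing cells, stood at 642 with the vector, 1433 in pool 1 and 1092 in pool 2. TUBB6 (chromosome 18, 12307668 to 12344319), class V beta-tubulin, had 65.2, 130 and 76.1. Both pools lay above the vector library for both genes, with pool 2 of TUBB6 close to it. The class II isotypes were scarce. TUBB2A (chromosome 6, 3153731 to 3157778) had 10.3, 12.7 and 11.6. TUBB2B (chromosome 6, 3223558 to 3231964) had 7.15, 13.5 and 6.11, so the vector value fell between the pools. TUBB3 (chromosome 16, 89987800 to 90005169) was at 2.05 with the vector, 2.57 in pool 1 and 3.88 in pool 2, the only member in which both pools were above the vector library and pool 2 was the higher.

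TUBG1 (chromosome 17, 40761659 to 40767256), which encodes the main gamma-tubulin, stood at 104 with the vector, 177 in pool 1 and 129 in pool 2. The order of levels from TUBA1B through TUBB, TUBA1C, TUBA1A and TUBG1 to TUBB6 was the same in the 3 libraries. The ranges of some neighbours in it overlapped across the pools. TUBA1B was at 1349 ± 177 and TUBB at 1263 ± 241 (SD, n = 2), and TUBG1 at 153 ± 33.6 and TUBB6 at 103 ± 38.1 (SD, n = 2). These SDs hold the gap in scale that genes of the same library share, so they do not measure how steady the order is within a library. TUBG1 and TUBB6 stood at 177 and 130 in pool 1 and at 129 and 76.1 in pool 2. TUBA1C, at 480 ± 49.7 (SD, n = 2), was apart from TUBB above it and from TUBA1A below it, at 250 ± 36.7 (SD, n = 2). Below TUBB6 the order changed between libraries, since TUBA4A ranked above TUBB2A in the vector library and last in both pools. TUBB2A and TUBB2B, at 12.2 ± 0.80 and 9.79 ± 5.22 (SD, n = 2), changed places, with TUBB2B the higher in pool 1 only. TUBB was 313 times TUBB3 with the vector, 558 times in pool 1 and 281 times in pool 2. Ranked among the 18674 genes, TUBB lay at the 99.6th percentile of coverage or above in every library and TUBB3 at percentiles 23.6, 45.3 and 50.4. Genes at 0 count as lower in this ranking, and 12.8% of rows were at 0 with the vector against 32.3% and 32.2% in the pools. The percentiles of TUBB3 are therefore not comparable between the vector library and the pools.

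**Figure D2:**
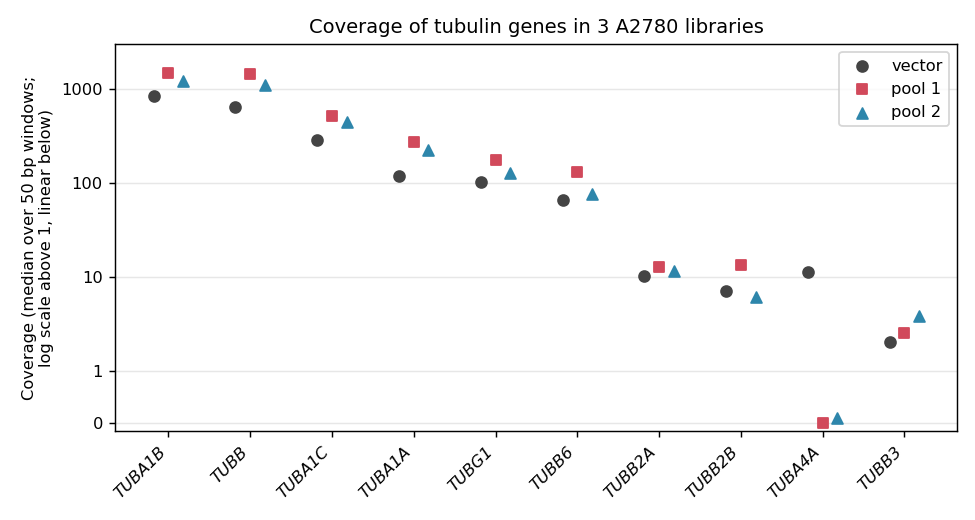
Coverage of the 10 tubulin genes in the vector library (circles), pool 1 (squares) and pool 2 (triangles), 1 point per library, on an axis that is logarithmic above 1. TUBA1B and TUBB are the highest in each library, and TUBA4A is the only gene with both pools below the vector library.

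The pools were compared with the vector library by limma across all 12552 genes past the filter on low values. With a single vector library, an effect of miR-181a cannot be told apart from traits of that library. All 10 members passed the filter. None of the 10 rose, and 1, TUBA4A, fell at an adjusted p of 0.05, beside 1.0% of all tested genes that rose and 21.7% that fell. Before adjustment, 2 of the 10 had a p under 0.05, as did 4162 of the 12552 tested genes. Folds are differences of log2(coverage + 1), which understate the change of genes with low coverage. The test has 1 residual degree of freedom, so it takes the single vector library to be as variable as the pools are.

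TUBA1A had the highest log2 fold of the members, 1.05 (SE 0.25), with differences from the vector library of 1.20 in pool 1 and 0.90 in pool 2. The limma adjusted p was 0.135, short of the threshold. For TUBB the fold was 0.96 (SE 0.38, limma adjusted p = 0.242), with 1.16 in pool 1 and 0.77 in pool 2. TUBA1C followed at 0.75 (SE 0.24, limma adjusted p = 0.199) and TUBA1B at 0.66 (SE 0.36, limma adjusted p = 0.33). These isotypes supply most of the cell's tubulin messenger RNA, and each was higher in 2 of 2 pools. TUBB6 had a fold of 0.60 and TUBG1 of 0.54, and their adjusted p-values were 0.453 and 0.347. TUBB3 had a fold of 0.45 (SE 0.26, limma adjusted p = 0.351). Its vector value is below the filter of 2.44, so it was tested only through the pools. A pool mean above its vector value was then fixed in advance. TUBB2B had a fold of 0.32 (SE 0.64) and TUBB2A of 0.22 (SE 0.28), so for the class II genes the fold was smaller than its standard error.

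**Figure D3:**
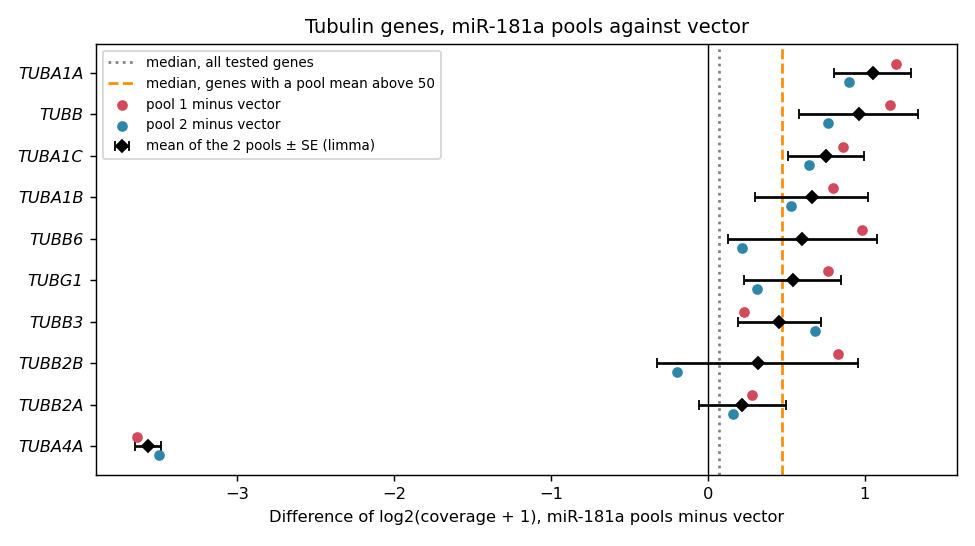
Difference of log2(coverage + 1) from the vector library for each tubulin gene in pool 1 (red) and pool 2 (blue), with the mean of the pools and its limma standard error (black). Dotted and dashed lines mark the medians of all tested genes (0.07) and of genes with a pool mean above 50 (0.47); TUBA1A, TUBB, TUBA1C and TUBA1B lie to the right of the dashed line in both pools, and TUBA4A lies at -3.57.

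Of the 10 members, 8 were above the vector library in both pools, and 1 was below it in both. The 8 include TUBB3, which passed the filter only through the pools. Of all tested genes 41.8% were below in both pools and 44.6% above, as were 77.5% of the 2124 genes with a pool mean above 50. The 6 members with a pool mean above 50 were all higher in both pools, and their median log2 fold was 0.71 beside 0.47 for the 2124 genes. A set chosen by the pool mean favours genes that are high in the pools. Chosen by the mean of the 3 libraries instead, 2186 genes were above 50, and both pools exceeded the vector library for 1450 of them (median log2 fold 0.39). Over the 10 members the median was 0.57, and 0.07 over all tested genes. No member was at least 1 log2 unit higher in both pools (2.53% of tested genes were), and 1 was at least 1 log2 unit lower (27.3%). When each pool was shifted so that the median difference of genes with a pool mean above 50 became 0 (shifts of 0.64 in pool 1 and 0.30 in pool 2), TUBA1A kept a fold of 0.58 and TUBB of 0.49. Both passed the limma test there, with adjusted p-values of 0.00276 and 0.0128, against none without the shift, but so did 710 of the 12552 tested genes upward and 5784 downward. Because the 2 pools are shifted by different amounts, the spread between them, on which the test rests, becomes smaller as well. TUBA1C was then at 0.28, TUBA1B at 0.19, TUBB6 at 0.13 and TUBG1 at 0.07, with pool 2 of TUBB6 at -0.08, while TUBB3 turned to -0.02, TUBB2B to -0.15 and TUBB2A to -0.25. With library medians set equal instead, 9 members passed upward, as did 6355 of the 12552 tested genes. Among the 2124 genes, the unshifted fold of TUBA1A lay at percentile 93.9, that of TUBB at 90.3 and that of TUBG1 at 57.9.

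TUBA4A was the only member that fell, by 3.57 on the log2(coverage + 1) scale (SE 0.08, limma adjusted p = 0.00193, lower in 2 of 2 pools). Its pool mean is below the filter of 2.44, so it was tested only because of its vector value, and a fall was then fixed in advance. A vector value at or above that of TUBA4A was found in 14.4% of the rows listed at 0 in both pools. STK16, which shares 27.1% of the windows of TUBA4A, stood at 13.9 with the vector, 18.1 in pool 1 and 13.6 in pool 2 (limma adjusted p = 0.769). The deposited value is a median, so a value of 0 leaves room for reads in fewer than 50% of the windows of TUBA4A. Without it, the median fold of the other 9 members was 0.60.

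Shares of isotypes within a library stay the same when the whole library is multiplied by 1 factor. TUBA1A made up 9.42% of the summed coverage of 9 alpha-tubulin genes with the vector, 12.2% in pool 1 and 11.8% in pool 2. The gap to the vector library was larger than the spread between the pools (12.0% ± 0.24, SD, n = 2). TUBA1B made up 66.9%, 65.0% and 64.6%, and TUBA1C 22.4%, 22.7% and 23.5%. TUBB made up 63.1% of the coverage of 9 beta-tubulin genes with the vector, 64.7% in pool 1 and 72.8% in pool 2, a gap between the pools larger than that between pool 1 and the vector library. TUBB2C, the class IVb isotype now named TUBB4B, made up 26.2%, 27.8% and 20.4%, and TUBB6 6.41%, 5.87% and 5.07%. TUBB3 was 0.201% of beta-tubulin coverage with the vector, 0.116% in pool 1 and 0.259% in pool 2, so the vector value lay between the pools. The ratio of summed alpha to summed beta coverage was 1.25 with the vector, 1.02 in pool 1 and 1.26 in pool 2. With 1 library against 2, no permutation test of these shares can pass a threshold of 0.05, and none is given.

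**Figure D4:**
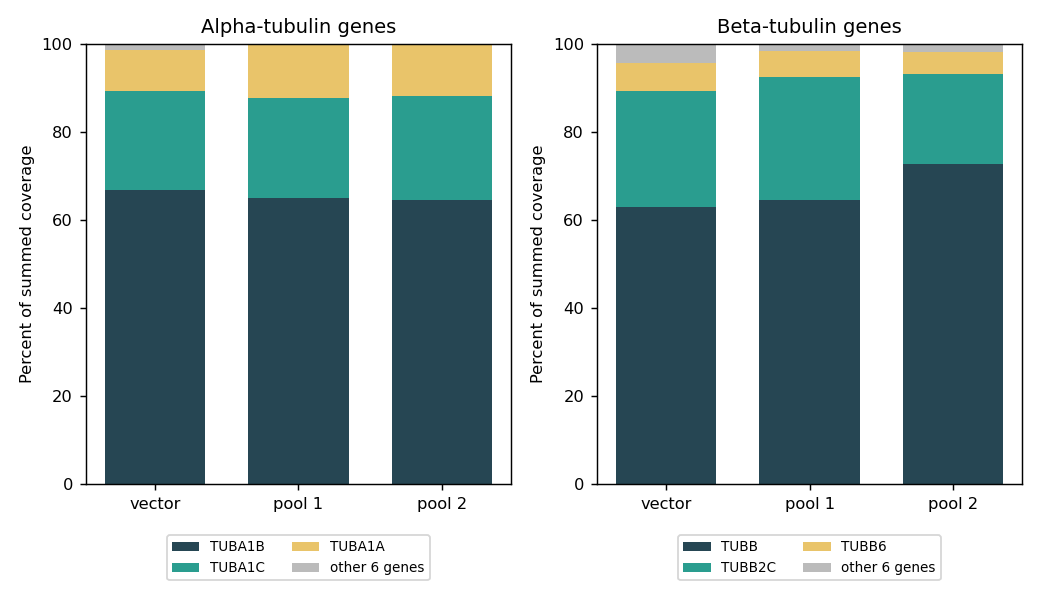
Percent of the summed coverage of 9 alpha-tubulin genes (left) and 9 beta-tubulin genes (right) in each library. TUBA1A takes 9.42% of alpha coverage in the vector library and 12.2% and 11.8% in the pools, and TUBB takes 63.1%, 64.7% and 72.8% of beta coverage.

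Between the pools, pool 2 was below pool 1 in 8 of the 10 members, as in 77.2% of all tested genes, with a median difference of -0.28 beside -0.27. The members' largest difference was that of TUBB2B, -1.03 log2 units, at percentile 0.844 of all tested genes. For TUBB6 it was -0.77 (percentile 4.88). TUBB3 was 0.45 higher in pool 2, at percentile 99.1, from coverage values of only 2.57 and 3.88. With 1 library per pool these differences have no replicate check.

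The study sought target genes of miR-181a. The 3 prime UTRs were therefore searched for the seed match of the mature miRNA, shown here because a match is what its targets would share. The sequence is from RefSeq, with the seed (bases 2 to 8) in capitals, and the line after it holds the only match among the members, 27 bases of the TUBB 3 prime UTR (chr6:30692342-30692368 on GRCh37, plus strand) with the 7 matching bases in capitals.
miR-181a-5p: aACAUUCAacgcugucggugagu
TUBB: acttgtttgtTGAATGTctcctctctc
The match begins at base 178 of a 3 prime UTR of 1025 bases and is not followed by an A. The other 9 members had no match. Their 3 prime UTRs are short: the median over the 10 members was 384 bases, beside 1068 over 19381 genes, of which 19.1% had a match. TUBB, the member with the match, was higher in both pools, with the values given above. The median log2 fold was 0.06 for 2302 tested genes with a match and 0.08 for 8641 without. Among genes with a pool mean above 50, as TUBB has, it was 0.48 for 286 with a match and 0.47 for 1599 without. A match of 7 letters is a description and does not show a site in use, and miR-181a itself was not measured by these values.

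Of 15 further tubulin symbols listed from their names, 12 were in the table and 7 were tested, with none that rose and 1 that fell. TUBB2C, the second most abundant beta-tubulin gene, stood at 267 with the vector, 617 in pool 1 and 306 in pool 2, a log2 fold of 0.70 with a standard error of 0.62 (limma adjusted p = 0.492). TUBG2, the minor gamma-tubulin, had 18.5, 41.4 and 30.6, and the ratio of TUBG1 to TUBG2 was 5.60, 4.27 and 4.23. Delta-tubulin (TUBD1) had 7.43, 14.7 and 10.4, and epsilon-tubulin (TUBE1) 7.69, 11.1 and 7.62, both genes of centriole tubulins. TUBB1, the isotype of platelets and their precursors, fell, from 11.0 in the vector library to a listed 0 in pool 1 and 0.139 in pool 2 (limma adjusted p = 0.00362). Like TUBA4A, it passed the filter only through its vector value, and 15.0% of the rows at 0 in both pools had a vector value as high. TUBB4, the class IVa gene typical of brain, had 4.48, 2.95 and 2.44. TUBB8 is named in 2 rows that went opposite ways, 8.90, 4.50 and 2.07 in the row tested and 2.38, 5.74 and 4.90 in the other. TUBA8, TUBA3D and TUBA3E were below the filter. TUBA8 stood at 4.69 with the vector and 0.588 and 0.424 in the pools, TUBA3D at 0.61, 1.85 and 1.43, and TUBA3E at 0.375, 0.672 and 0.335. TUBA3C and TUBAL3 were at 0 in the 3 libraries. TUBB4Q, which was named after its values were seen, stood at 1.14, 4.57 and 3.87, and no test of it is given.

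The 5 groups of related genes that follow are to be read beside the same shares of all tested genes, 1.0% that rose and 21.7% that fell. Their medians and that of the further tubulin genes were above 0, but after the shift by genes with a pool mean above 50 they ran from -0.45 to -0.04, so the direction of these groups rests on the scaling. The median of all tested genes was 0.07 before that shift and -0.40 after it, and only that of the destabilisers lay below it in each case. Higher in both pools were 15 of 21 folding genes, 12 of 21 stabilisers, 6 of 14 destabilisers, 9 of 17 modifying enzymes and 9 of 20 genes of the gamma-tubulin ring, beside 44.6% of all tested genes. Tubulin folding needs the chaperonin TRiC, its partner prefoldin and the tubulin cofactors. Of 21 genes of this group measured and tested, none rose or fell, and the median log2 fold was 0.30. CCT3, a TRiC subunit, stood at 437 with the vector, 694 in pool 1 and 596 in pool 2. The prefoldin subunits PFDN5 and PFDN1 lay apart, PFDN5 at 152, 275 and 273 and PFDN1 at 117, 50.7 and 46.6, neither past the test (limma adjusted p = 0.118 and 0.0656). TBCEL, a cofactor-like protein, was at 10.6, 5.17 and 6.12.

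Proteins that stabilise microtubules or bind their growing ends included 24 genes measured and 21 tested, with none that rose, 1 that fell and a median log2 fold of 0.43. The gene that fell was MAPT, which encodes tau, with 18.9 for the vector and a listed 0 for each pool, so the filter fixed its fall. CKAP2, a spindle protein, was at 114, 41.5 and 34.0 (limma adjusted p = 0.0683). MAP2, a neuronal stabiliser, was at 53.6, 26.1 and 18.3, and CAMSAP1, which binds minus ends, at 27.4, 13.7 and 8.95, and neither passed the test. Of 16 destabilising and severing genes, 14 were tested, 1 rose and 2 fell, with a median of 0.02. KATNAL1, a katanin-like severing enzyme, rose from 1.45 to 4.77 in pool 1 and 4.13 in pool 2 (limma adjusted p = 0.0268), but its vector value is below the filter, so it was tested only through the pools and a rise was fixed in advance. Its relative KATNAL2 fell from 13.4 to 3.59 and 2.78 (limma adjusted p = 0.0385). The other fall was that of the kinesin KIF2B, at 12.6 with the vector and a listed 0 in each pool, so the filter fixed it. SPAST, which encodes spastin, stood at 58.9, 16.6 and 13.1 and STMN3, a stathmin, at 9.71, 1.56 and 2.51, both without passing the test (limma adjusted p = 0.069 and 0.0642). The pool mean of STMN3 is below the filter, so it was tested only through its vector value and its direction was fixed in advance.

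Enzymes that modify tubulin were measured for 24 genes and tested for 17. Of the genes tested 1 rose and 3 fell, with a median log2 fold of 0.24. VASH2, a carboxypeptidase that removes the terminal tyrosine of alpha-tubulin, rose from 0.874 in the vector library to 3.93 in pool 1 and 3.82 in pool 2 (log2 fold 1.38, SE 0.02, limma adjusted p = 0.00107), and as for KATNAL1 the filter fixed the direction. TTLL11, a polyglutamylase, fell from 7.09 to 2.67 and 2.98 (limma adjusted p = 0.0206). The deglutamylase gene AGBL4, at 16.9 in the vector library, and TTLL10, a gene of the glycylase family at 7.40, were listed at 0 in both pools, and the filter fixed their falls. TTLL3, a glycylase, stood at 12.8, 38.4 and 30.3, short of the threshold (limma adjusted p = 0.121).

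The gamma-tubulin ring complex and its partners, which work with TUBG1, were measured for 20 genes, all tested, with none that rose or fell and a median of 0.29. TUBGCP6, a ring subunit, stood at 6.10 with the vector, 16.6 in pool 1 and 11.3 in pool 2. PCNT, the centrosome scaffold pericentrin, stood at 54.0, 15.4 and 12.4 (limma adjusted p = 0.0689). HAUS4 and HAUS6, subunits of augmin, which recruits the rings to spindle microtubules, were higher in both pools, HAUS4 at 45.1, 76.0 and 84.4 and HAUS6 at 7.77, 14.3 and 15.5.

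**Figure D5:**
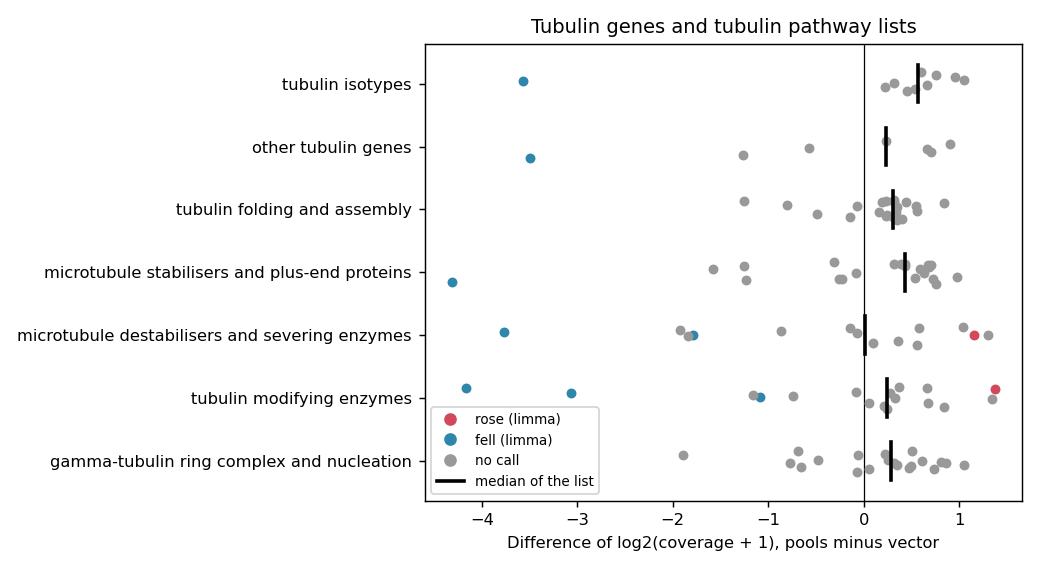
Difference of log2(coverage + 1), pools minus vector library, for each tested gene of the 10 tubulin isotypes and of 6 lists of related genes, with calls by limma in red (rose) and blue (fell) and list medians as bars. The 2 genes called as risen, KATNAL1 and VASH2, have vector values below the filter, and the genes farthest to the left, MAPT and AGBL4, are at 0 in both pools.

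The levels of TUBB3 over the 3 libraries were most like those of MYOF (1.98, 2.92 and 3.61), CD9 (1.85, 3.05 and 3.75) and MTMR10 (1.72, 2.87 and 3.58), by the Euclidean distance of log2(coverage + 1), which was 0.16, 0.21 and 0.22. Over only 3 libraries, 55 tested genes lay within 0.5 of TUBB3. The search covered tested genes only. Like TUBB3, MYOF, CD9 and MTMR10 have vector values below the filter of 2.44, so they were tested only through the pools. A pool mean above the vector value was thus fixed in advance for each, and the likeness is no result about TUBB3.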

How the data were processed

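RNA enriched with oligo(dT) beads was sequenced to 100 nt on an Illumina HiSeq 2000 and mapped to hg19, and the authors took read density in windows of 50 bp that slide along a gene and deposited the median as its coverage signal, per the labels' protocols. No source used here names the aligner or annotation. Quantile normalization and a log transformation are described there, yet the deposited coverage is linear and its quantiles differ between libraries, so none was assumed. Of 29156 rows, 308 without a vector value were left out, none of a member, and 52 of 54 symbols turned into dates were restored by accession. Each symbol kept the row with the highest mean, and after genes at 0 in all libraries were dropped, the lowest 25% by mean were left untested. Values were log2(coverage + 1), fitted with limma 3.58.1 in R 4.3.3 (eBayes with a variance trend, Benjamini-Hochberg over all tested genes). The fit was also run on simulated libraries that all have the same spread, so that run does not test how variable the real vector library is. Alternatives changed the scaling, the filter, the row chosen, the pseudocount, the variance trend, the size threshold and the genes summed for shares, or left out a pool. Transcripts came from GENCODE 44 on GRCh37, the assembly of hg19, 1 canonical transcript per gene, with pairwise global alignments of the beta-tubulin coding sequences in Biopython 1.88. Members and lists were chosen with earlier results of these data known. Named genes are all members, listed tubulins, and in each other list those past the test and up to 4 with the largest fold of equal sign in the pools, plus the 3 genes nearest TUBB3.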

Additional observations from a re-analysis of the deposited data

How the results depend on the processing

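No paired analysis was possible because the vector group has 1 library, so the groups share fewer than 2 replicate numbers. Scaling decided most calls. With library medians set equal, 9 members passed limma upward, 4 were at least 1 log2 unit higher in both pools and the median fold was 0.99; with quantile normalization these were 7 and 3. The median was 0.19 after the shift by genes whose mean over the libraries exceeds 50 and 0.10 after that by genes with a pool mean above 50, and 2 members rose under each. There TUBB2A turned to -0.16 and -0.25 and TUBB2B to -0.065 and -0.15, and TUBB3 turned to -0.017 in the second. The same genes went the other way under the other scalings. With quantile normalization TUBB3 was at 1.95, TUBB2B at 2.01 and TUBB2A at 0.95 (limma adjusted p = 0.0217, 0.026 and 0.0241). With medians set equal they were at 0.87, 0.73 and 0.64, and all passed the limma test. With a filter at the median, 7 members were tested, 1 rose (TUBA1A, adjusted p = 0.0247) and TUBA4A was not tested, so 0 fell by the test or the size rule. At a size threshold of 0.58, 3 members were higher in both pools and 1 was lower, beside 1736 and 3979 of the 12552 tested genes. Over all genes, 126 rose and 2725 fell; medians set equal gave 6355 and 3701, quantile normalization 5641 and 3338, the shifts 1039 and 5390, and 710 and 5784. No filter gave 278 and 5626, and the filter at the median 402 and 1476. TUBA1A and TUBB were above 0 in all 11 alternatives with a test and passed in 5 and 4 of them. Leaving out pool 1 or pool 2 gives values with no test: 0 to 2 members were at least 1 log2 unit higher, and those 2 with pool 1 alone are TUBA1A and TUBB. The depth is unknown, so no counting error is given.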
